A study of Mus musculus with 8 samples.

Results

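5-Hydroxymethylcytosine (5hmC) over gene bodies was compared between 2 libraries of mouse embryonic stem cells (ESCs), 1 labelled shGFP and 1 labelled shSuz12. Both were made by GLIB-Seq, in which 5hmC is glucosylated, tagged with biotin and pulled down before sequencing. The same number of nuclear peaks, those with the highest score, was kept in each library, 17.7% of the 132996 peaks of shGFP and 16.9% of the 138705 of shSuz12. For each protein-coding gene the number of bp under kept peaks was measured in the gene body, that is, the gene span without the 1 kb on each side of its transcription start site (TSS). Of 22367 protein-coding genes of the mm9 annotation, 20470 have such a body. Both groups are cells of the line E14, transfected with a plasmid for a short hairpin RNA and kept in puromycin at 1 µg/ml for 3 days. The hairpin of the control is directed against GFP, which is no mouse gene, and that of the other library against Suz12. The series holds other 5hmC libraries (fibroblasts, brain and liver) that were not used here, and untransfected E14 cells, labelled ESC, which stand beside the comparison as a further library without knockdown, under the same rule. Each condition has 1 library, so no difference below has a replicate check and no test was made. RNA-Seq of the shGFP and shSuz12 cells was not analysed here, so neither the level of Suz12 nor the identity of the cells could be checked from RNA.

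5hmC is made from 5-methylcytosine by the Tet dioxygenases, of which Tet1 is abundant in ESCs, and in many tissues it lies over gene bodies, mostly at CpG dinucleotides. Suz12 is a core subunit of Polycomb repressive complex 2 (PRC2), which also holds Eed and the methyltransferases Ezh2 or Ezh1 and places methyl groups on lysine 27 of histone H3. In ESCs, PRC2 is known for its place at CpG-rich genes of developmental regulators, among them the Hox clusters, and Tet1 is also found at many of these genes.

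Over the union of gene bodies (974 Mb), 22670178 bp lay under kept peaks in shGFP. In shSuz12 the value was 13004087 bp, a ratio of 0.574. Over the whole genome the ratio of covered bp was 0.545, and gene bodies held 62.2% of the covered bp in shGFP and 65.4% in shSuz12. The lower value is thus not particular to gene bodies. Among gene lists with at least 10 shGFP peaks, the ratio was lowest for Hox genes (0.187), Adam and Adamts proteases (0.312), Polycomb complex genes (0.363), receptor-type protein phosphatases (0.378) and forkhead, Sox, Gata and T-box factors (0.392). Wnt genes (0.535) and FGF, BMP and TGF-beta genes (0.529) lay close to all bodies. In the Hox genes the untransfected ESC library was also low, at 0.259 of shGFP. The number of peaks whose midpoint lay in a gene body was not lower, being 14201 in shGFP and 15089 in shSuz12. The median kept peak was 1421 bp wide in shGFP and 806 bp in shSuz12, and the lowest score kept was 166.23 in shGFP and 80.09 in shSuz12. ESC had the widest kept peaks, with a median of 1877 bp and a lowest score of 488.91, and 35.1 Mb of its gene bodies were covered, 1.55 times the value of shGFP. Depth is unknown for all of them, and the parts of depth, enrichment and knockdown in these widths cannot be told apart.

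The sequence under the strongest peak is shown for the first genes in each direction, so that the kind of DNA behind the values can be seen. Each is the central 200 bp of the peak with the highest score in the body, in mm9, on the plus strand, with CpG dinucleotides in capitals. The long gene model Gm20388 and Zfhx3 stand for the bodies that lost most bp, with their shGFP peaks, and Arhgap17 and Ext1 for those that gained most, with their shSuz12 peaks. The Gm20388 peak also lies in Gse1 and is labelled Gse1 below, but the rank is that of Gm20388. Wnt10b and Adprh, chosen after the values were seen, stand for the largest differences in the share of a body covered.
Gse1, chr8:123076150-123076349: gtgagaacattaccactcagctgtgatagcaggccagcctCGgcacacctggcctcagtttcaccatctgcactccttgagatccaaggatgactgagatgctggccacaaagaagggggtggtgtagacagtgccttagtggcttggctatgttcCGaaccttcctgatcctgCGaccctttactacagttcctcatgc
Zfhx3, chr8:111472369-111472568: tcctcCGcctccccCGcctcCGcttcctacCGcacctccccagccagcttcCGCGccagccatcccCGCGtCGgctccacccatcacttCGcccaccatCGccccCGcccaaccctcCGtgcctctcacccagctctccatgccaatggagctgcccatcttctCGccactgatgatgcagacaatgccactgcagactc
Arhgap17, chr7:130503708-130503907: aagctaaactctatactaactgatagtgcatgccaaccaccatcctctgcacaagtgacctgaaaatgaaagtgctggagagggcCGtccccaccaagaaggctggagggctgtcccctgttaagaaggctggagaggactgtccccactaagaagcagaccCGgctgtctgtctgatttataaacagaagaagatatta
Ext1, chr15:53129248-53129447: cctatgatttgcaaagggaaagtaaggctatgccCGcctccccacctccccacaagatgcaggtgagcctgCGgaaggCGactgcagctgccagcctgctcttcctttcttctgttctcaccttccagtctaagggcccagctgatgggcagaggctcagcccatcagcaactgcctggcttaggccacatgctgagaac
Wnt10b, chr15:98606870-98607069: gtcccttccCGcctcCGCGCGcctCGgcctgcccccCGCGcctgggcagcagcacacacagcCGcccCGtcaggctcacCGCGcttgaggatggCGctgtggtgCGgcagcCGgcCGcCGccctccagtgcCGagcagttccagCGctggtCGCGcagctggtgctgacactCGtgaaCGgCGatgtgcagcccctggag
Adprh, chr16:38445780-38445979: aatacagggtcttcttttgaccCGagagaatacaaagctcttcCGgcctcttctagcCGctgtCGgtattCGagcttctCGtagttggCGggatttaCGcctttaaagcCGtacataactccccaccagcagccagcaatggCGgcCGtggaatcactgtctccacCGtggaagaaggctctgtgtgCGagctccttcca

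The Zfhx3 sequence lies wholly in a coding exon and holds 14 CpG, and that of Wnt10b, with 23 CpG, has 121 of its bp in a coding exon. Adprh also shows coding sequence over the whole 200 bp, with 13 CpG. The sequences of Gse1, Arhgap17 and Ext1 are intronic and hold 3, 2 and 3 CpG. The Gse1 peak was 14134 bp wide in shGFP, and kept shSuz12 peaks covered 6689 bp of it, none of them in the stretch shown. In Zfhx3, all 200 bp shown were also under a kept shSuz12 peak. The Wnt10b peak met no shSuz12 peak, kept or not, whereas the shown peaks of Arhgap17, Ext1 and Adprh met weaker shGFP peaks outside the kept set, with top scores of 92.14, 58.43 and 100.62.

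Which genes had less 5hmC coverage with the Suz12 hairpin was then asked gene by gene. Covered bp were lower in shSuz12 in 5671 bodies, higher in 2800, equal and above 0 in 17, and 0 in both libraries in 11982. A gene was counted as lower or higher when at least 1000 bp were covered in the higher library and the values differed at least 2-fold. By this rule 3147 genes were lower (15.4% of all bodies) and 708 higher (3.46%), so 81.6% of the genes counted were lower. When shSuz12 bp were multiplied by 1.83, the ratio of all bp covered in the genome, 1974 were lower (9.64%) and 2069 higher (10.1%), and the lower share was 48.8%. By numbers of midpoints, with at least 2 in the higher library, 1067 were lower and 1257 higher, a lower share of 45.9%. Scaling sets the covered bp of both libraries equal, and midpoints come from equal numbers of peaks. Neither measure can therefore show a fall over the whole genome, and their near-even splits do not speak to one. The values of single genes are read below against the ratio of all bodies. Between ESC and shGFP, neither with the Suz12 hairpin, 991 genes were lower in ESC (4.84%) and 2857 higher (14%). That comparison uses the same shGFP library.

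**Figure D1:**
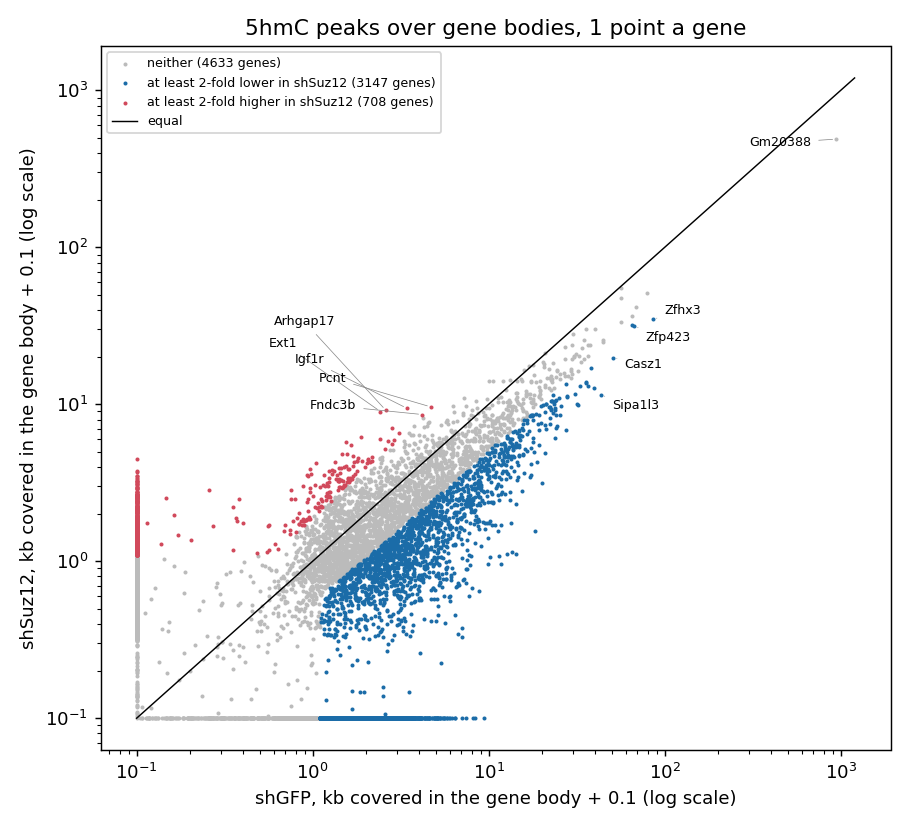
Covered kb of each gene body in shGFP (x axis) and shSuz12 (y axis), both with 0.1 kb added and on log scales. Each point is 1 gene covered in at least 1 of the libraries; colours mark the 3147 lower and 708 higher genes, and the first 5 genes of each direction are named.

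Of the 3147 lower genes, 1404 had no bp under kept shSuz12 peaks, and 1316 of these (93.7%, exact binomial 95% interval 92.3 to 94.9, counting error only) had bp in the full shSuz12 list. Likewise 552 of the 708 higher genes were bare in the kept shGFP peaks, and 543 of these had bp in the full shGFP list (98.4%, 96.9 to 99.3). A body listed at 0 here is therefore mostly one whose peaks ranked too low to be kept, not one without peaks.

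The ranking by bp favours long, well covered bodies. Of the 15 largest differences downwards, Sipa1l3 alone was also 2-fold lower after scaling, while all 15 upwards were 2-fold higher after it. Scaling multiplies every shSuz12 value by 1.83, which makes the 2-fold rule harder to meet downwards and easier upwards. The lowest ratio among the 15 upwards was 1.42 before it, in Mcph1, so their result was set in advance. The contrast therefore cannot show which direction is firmer. Zfhx3, a homeobox and zinc finger transcription factor on chromosome 8, had 85873 bp in shGFP, 34686 bp in shSuz12 and 92475 bp in ESC. Its number of peaks was 43 in shGFP and 28 in shSuz12. ESC was the highest and shSuz12 the lowest, which is also the order of the libraries over all bodies.

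Zfp423, a zinc finger transcription factor, had 67073 bp in shGFP, 31242 bp in shSuz12 and 113545 bp in ESC. Casz1, another zinc finger factor, followed with 50922, 19750 and 57174 bp, and Nfix, of the nuclear factor I family, with 35818, 13479 and 52585 bp. In these 3 genes shSuz12 was the lowest of the 3 libraries, with a ratio to shGFP between 0.376 and 0.466.

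Sipa1l3, a relative of Rap GTPase-activating proteins, had 43363 bp in shGFP, 11356 bp in shSuz12 and 43910 bp in ESC. Its peaks numbered 24 in shGFP and 12 in shSuz12. Rnf220, a ubiquitin ligase gene, gave 36565, 12986 and 53405 bp, the kinase gene Cit, which acts in cytokinesis, 35607, 13738 and 57950 bp, and Stox2 31724, 9974 and 32672 bp. Slit3, a secreted ligand of Robo receptors in axon guidance, differed from these, since ESC was also low: it had 31917 bp in shGFP, 9758 in shSuz12 and 6660 in ESC.

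Among the 15 largest differences were also 5 genes under 2-fold. Tiam1, an exchange factor for Rac, had 65314 bp in shGFP and 36388 in shSuz12, a ratio of 0.557, and its peaks numbered 34 and 37. 4933407C03Rik had a ratio of 0.639, the axonemal dynein gene Dnahc8 0.595 and Fgfr2 0.606, all close to or above that of all bodies. Gm20388 is a model of 4435 kb with 72 other protein-coding genes inside it, and Fgfr2 is annotated with 3009 kb and 31 genes inside, so their values belong to regions rather than to single genes. Gm20388 had 943078 bp in shGFP, 489292 in shSuz12 and 1497122 in ESC, with 495, 487 and 580 peaks.

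Differences upwards were smaller, and many of these bodies held few shGFP peaks. Arhgap17, which encodes a GTPase-activating protein, had 2500 bp in shGFP, 9084 in shSuz12 and 8766 in ESC, from 1, 9 and 4 peaks. Ext1, whose product builds heparan sulfate chains, had 2327 bp, 8898 bp and, in ESC, 0 bp, from 2, 11 and 0 peaks. Here shSuz12 stood above both controls, whereas Arhgap17 was alike in shSuz12 and ESC.

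The growth factor receptor gene Igf1r had 3329 bp in shGFP, 9341 in shSuz12 and 6720 in ESC. Nudcd3 had no kept peak in shGFP or ESC and 4376 bp in shSuz12, in 5 peaks. Atrnl1 had 1774, 6074 and 1013 bp, and Frmd6, a FERM domain protein gene, 1445, 5683 and 4235 bp. In these 4 genes shSuz12 was the highest of the 3 libraries, with at least 5 peaks in each.

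In most other genes of this direction shGFP was the lowest library and ESC the highest. Pcnt, which encodes the centrosome scaffold pericentrin, had 4591 bp in shGFP, 9530 in shSuz12 and 15582 in ESC, and Fndc3b had 4089, 8511 and 11689 bp. Erich1 gave 2717, 7010 and 11239 bp, and Pkp4, of the plakophilin family, 2313, 5932 and 10825 bp. Rph3al, a Rab effector, differed in that ESC, with 4980 bp, lay between shGFP (1551 bp) and shSuz12 (5426 bp). Mcph1, Abr and Pdia5 were also among the 15, with ratios of 1.42, 1.96 and 1.53, under the 2-fold rule.

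**Figure D2:**
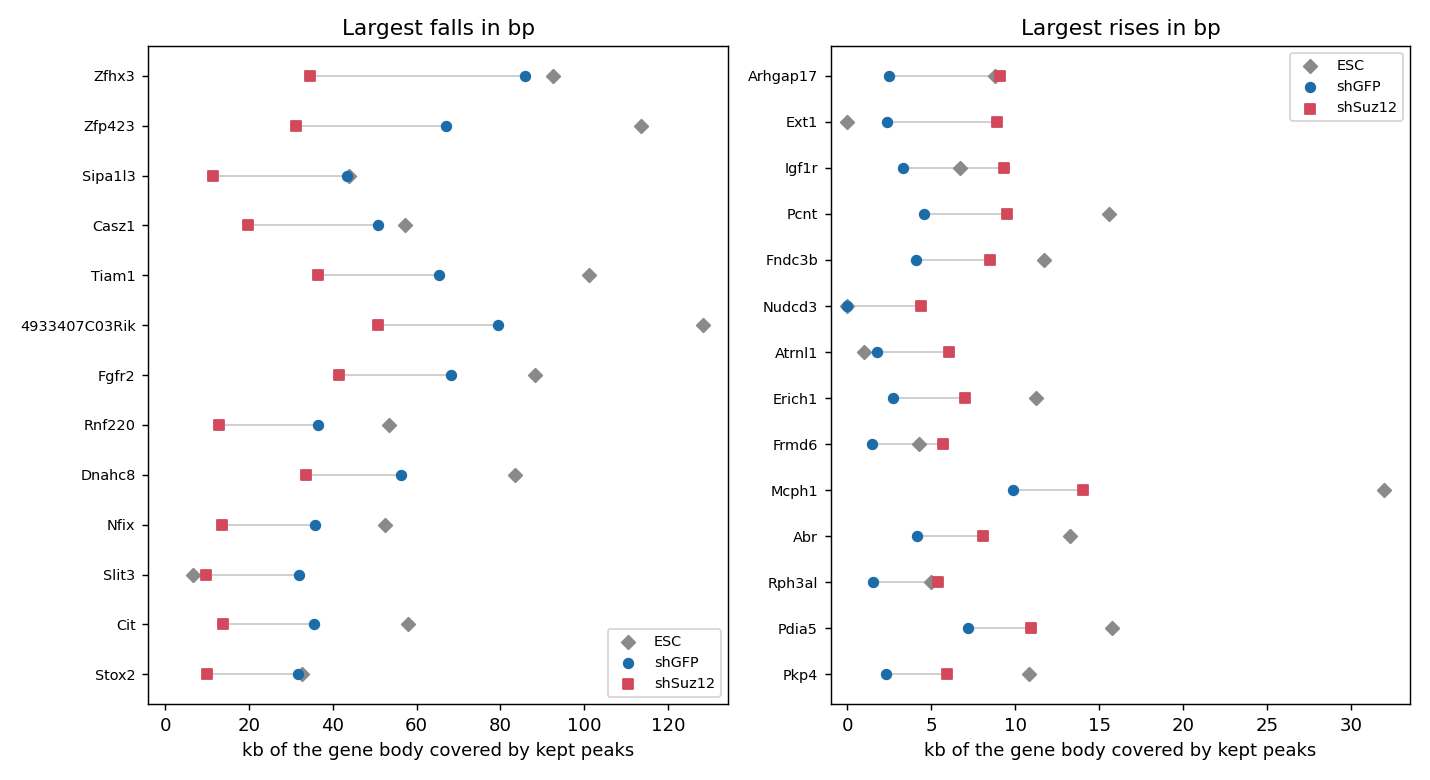
Kb of the gene body under kept peaks for the largest differences in each direction, without Gm20388, which would stretch the axis, and without genes not reported here; points are single libraries and grey lines join shGFP and shSuz12. In Slit3 and Ext1, for example, ESC lies below shGFP and shSuz12, while in Zfp423 and Tiam1 it is the highest library.

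The position of the peaks shows 2 kinds of difference. In Zfhx3, Sipa1l3 and Casz1, runs of broad shGFP peaks stood where shSuz12 had fewer and narrower ones along the whole gene. In Ext1, Igf1r and Fndc3b, narrow shSuz12 peaks were scattered over stretches that held few kept shGFP peaks.

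**Figure D3:**
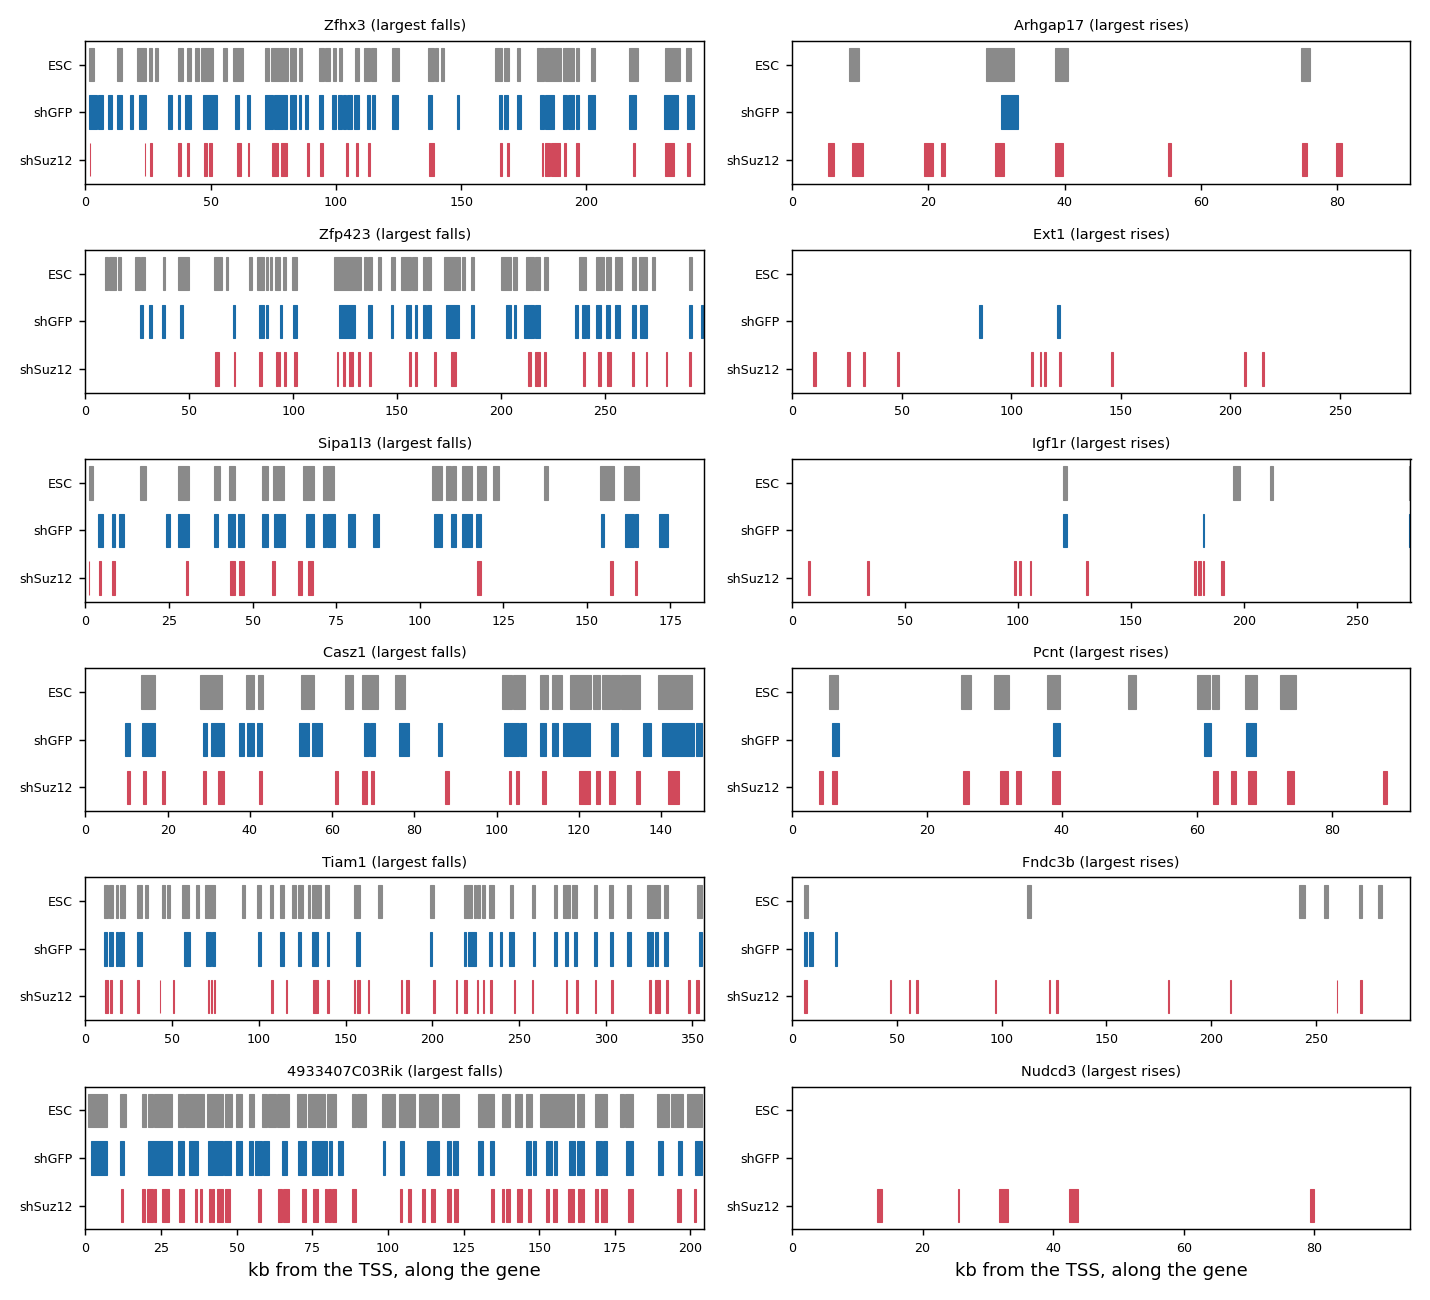
Kept peaks of ESC, shGFP and shSuz12 along the first 6 genes of each direction, with Gm20388 left out for its length; the x axis is kb from the TSS along the gene and each bar is the part of a peak in the gene body. Zfhx3 holds 43 shGFP and 28 shSuz12 peaks, and Nudcd3 holds 5 peaks, all of them from shSuz12.

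After scaling, Prtg, Igsf21, Ptk7, Slit3 and Stox2 entered the 10 largest differences downwards. Prtg, which encodes the cell-surface protein protogenin, had 18338 bp in shGFP and 1458 in shSuz12, from 12 and 2 peaks, beside 7639 bp in ESC. Ptk7, a receptor-like gene of the Wnt planar cell polarity pathway, had 19912 bp, 3031 bp and 26529 bp, and Igsf21 had 27390, 6776 and 43533 bp. Upwards, scaling brought forward several genes whose bp hardly differed or were lower before it. Pitpnc1 had 40011 bp in shGFP and 29894 in shSuz12, with 22 and 30 peaks. Wwox had 56677 bp in shGFP and 55312 in shSuz12, with 38 and 57 peaks, and Arid1b, a subunit gene of SWI/SNF remodelling complexes, 16795 and 17314 bp, with 10 and 18 peaks. Sfi1 was an extreme case, with 93.0% of its body covered in shGFP and 77.9% in shSuz12. Its scaled shSuz12 value, 86636 bp, is more than its body of 60614 bp, so its scaled rank cannot be read as a gain.

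Among bodies of at least 5 kb, Wnt10b, a Wnt ligand gene, had the largest difference in the share covered, 83.4% in shGFP and 0% in shSuz12. ESC also had 0% there. The laminin gene Lamb2 had 72.0% in shGFP, 0% in shSuz12 and 8858 bp in ESC, and the homeobox gene Pbx2 64.0% and 0%, with 2353 bp in ESC. Tbkbp1 had 64.8% and 0%, and Gigyf1 94.6% and 29.0%. Except for Wnt10b, which had no shSuz12 peak at all, these genes had bp in the full shSuz12 list, with 3474 bp in Lamb2 and 1680 bp in Pbx2. Upwards, Adprh had 0% in shGFP and 38.5% in shSuz12, Taf1c, a subunit gene of the RNA polymerase I factor SL1, 4.55% and 38.4%, and Clpp, a mitochondrial protease gene, 20.1% and 45.8%.

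Gene lists were then set against all bodies by role. Over all bodies 15.4% of genes were lower and 3.46% higher, and 9.64% and 10.1% after scaling. Counts given for a list are therefore on both scales. Only a body with at least 1000 bp in shGFP can count as lower, so the share lower also depends on how many bodies are covered. In shGFP 32.0% of all bodies were covered, beside 50% of Hox, 59.4% of other homeobox, 41.8% of forkhead group and 47.4% of Polycomb bodies. Transcription factors of development come first. The 40 Hox genes, counted as annotation entries of which some share a symbol, had 49875 bp in shGFP, 9335 in shSuz12 and 12925 in ESC. Their peaks numbered 44 and 14 in the first pair. Of them, 13 were lower (32.5%, beside 15.4% of all bodies) and 0 higher, with a median difference of 0 bp, and 10 were lower and 1 higher after scaling. Hoxd3 had 12726 bp in shGFP, 4650 in shSuz12 and 3022 in ESC, and Hoxc6 5270, 124 and 0 bp. Hox bodies overlap within their clusters, so their genes are not separate observations. ESC, which has no hairpin, was also low here, with a ratio to shGFP of 0.259 where all bodies have 1.55.

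The 96 homeobox genes outside the Hox clusters had 288095 bp in shGFP, 132539 in shSuz12 and 280168 in ESC, a ratio of 0.460. Of them, 33 were lower (34.4%, beside 15.4% of all bodies) and 0 higher, and 21 were lower and 7 higher after scaling. Without Zfhx3 the ratio was 0.484. Their peaks numbered 171 in shGFP and 137 in shSuz12, and the median difference was -432.5 bp, where that of all bodies was 0. Irx4 had 4614 bp in shGFP and 879 in shSuz12, and Cux2 33661 and 22726 bp.

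Forkhead, Sox, Gata and T-box factors, 79 genes that act as regulators of cell fate, had 109 peaks in shGFP and 75 in shSuz12, and 22 of them were lower (27.8%, beside 15.4% of all bodies) and 0 higher. After scaling 12 were lower and 5 higher. Foxn3 had 23570 bp in shGFP and 6045 in shSuz12, Foxo3 15571 and 4755 bp, and Sox13 13082 and 2350 bp. Gata4, a regulator of endoderm and heart, had 11581 bp in shGFP, 2927 in shSuz12 and 3773 in ESC, so that in this gene ESC lay nearer to shSuz12. In Foxn3, Foxo3 and Sox13 ESC was instead above shGFP, with 28154, 30271 and 20274 bp. For the whole list the ratio of ESC to shGFP was 1.17, where all bodies have 1.55. Nuclear receptors (0.531) and Zfp genes (0.527) were close to all bodies.

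The 38 Polycomb complex genes had 54551 bp in shGFP, 19817 in shSuz12 and 69810 in ESC, with 37, 23 and, in ESC, 37 peaks. Of them, 11 were lower (28.9%, beside 15.4% of all bodies) and 0 higher, and 8 were lower and 1 higher after scaling. Of PRC2 itself, Suz12, Ezh2 and Eed had no bp in their bodies in any of the 3 libraries, and neither did Mtf2. Jarid2, an accessory subunit, had 4070 bp in shGFP, 721 in shSuz12 and 2428 in ESC, and Aebp2, another, had 5433, 2314 and 6025 bp. In PRC1, Cbx7 had 5117 bp in shGFP and 610 in shSuz12, and Phc1 3722 and 0 bp. Kdm2b, which binds unmethylated CpG, had 14546 and 7922 bp, and without it the ratio of the list was 0.297. Under all peaks the list lay nearer to all bodies, at 0.933 of their ratio, and the Hox genes at 0.668.

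Tet, Dnmt and demethylation genes, 25 in all, had a ratio of 0.599, with 5 lower and 1 higher, and 5 lower and 3 higher after scaling, beside 15.4% and 3.46% of all bodies before it. Divided by the ratio of all bodies, their value ranged from 0.570 with the top 10000 peaks to 1.11 by midpoints. Tet1 had 4529 bp in shGFP, 3489 in shSuz12 and 6113 in ESC, and Tet3 4129, 2167 and 8040 bp. Dnmt3a, a de novo DNA methyltransferase, was the higher one, with 1926 bp in shGFP, 4153 in shSuz12 and 8663 in ESC. Among pluripotency factors (0.610), Esrrb had 13691 and 5125 bp and Stat3, the effector of LIF signalling, 1681 and 4254 bp, while Pou5f1 had none in any library. The corepressor gene Sin3a was also bare. Kdr, a VEGF receptor gene, had 2488 bp in shGFP, 1134 in shSuz12 and 1727 in ESC, and the cell cycle phosphatase gene Cdc25a 1090, 0 and 2196 bp. These values rest on few peaks, 2 in shGFP and 2 in shSuz12 for Kdr, and 1 and 0 for Cdc25a. In the full lists Kdr had 3179 bp in shGFP and 3103 in shSuz12, and Cdc25a 4069 and 3444 bp.

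Cell-surface and extracellular genes spread more widely, and their counts too stand beside 15.4% lower and 3.46% higher over all bodies. In shGFP 33.9% of protease, 59.1% of phosphatase, 42.9% of cadherin and 61.25% of axon guidance bodies were covered, beside 32.0% of all bodies. Adam and Adamts proteases had 67313 bp in shGFP and 21013 in shSuz12 (0.312), with 14 of 56 lower and 1 higher (10 and 2 after scaling), and Adamts2 had 7605 and 504 bp. Receptor-type protein phosphatases (0.378) had 10 of 22 lower and 0 higher, but 3 and 2 after scaling, and Ptprn2 had 11383 bp in shGFP and 976 in shSuz12. Cadherins and protocadherins (0.446) had 17 of 70 lower and 0 higher (11 and 5 after scaling), with 17729 and 5680 bp in Cdh3. Axon guidance genes (0.488) had 25 of 80 lower and 3 higher, but 15 and 14 after scaling, and Efnb2, a ligand of Eph receptors, had 11628 and 858 bp. With all peaks of the lists in place of the top-ranked ones, the ratio of the proteases was 0.966 of that of all bodies, and that of the phosphatases, at 1.12, lay above it. Collagens, laminins and integrins (0.609) and neuronal adhesion genes (0.613) lay slightly above all bodies.

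Signalling pathways stayed close to all bodies in summed bp, with single genes well below. The ratio was 0.502 for Notch and Hedgehog genes, 0.529 for FGF, BMP and TGF-beta genes and 0.535 for Wnt genes. In the same order 36.6%, 29.3% and 33.3% of genes were lower, shares close to those of the transcription factor lists (27.8% to 34.4%). After scaling 8 were lower and 7 higher, 20 and 9, and 16 and 5. In shGFP 61.0%, 52.2% and 71.4% of their bodies were covered, beside 32.0% of all bodies. Ptch1, the Hedgehog receptor, had 7390 bp in shGFP and 915 in shSuz12, beside 3397 in ESC. Axin2, a Wnt target and scaffold, had 7908 and 2268 bp, and Spred2, an inhibitor of Ras signalling, 17297 and 4082 bp. MAP kinase genes had a ratio of 0.603, with 16 of 73 lower (21.9%, beside 15.4% of all bodies) and 7 higher, which turned to 11 lower and 15 higher after scaling. In shGFP 45.2% of the MAP kinase bodies were covered, beside 32.0% of all bodies.

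Genes of general cell functions lay close to or above the ratio of all bodies. DNA repair genes had 0.573, solute carriers 0.583, ubiquitin ligases and proteases 0.610 and respiratory chain genes 0.673. Spectrins, ankyrins and microtubule-binding genes had 291601 bp in shGFP and 189517 in shSuz12 (0.650), with more peaks in shSuz12 (210) than in shGFP (175). Of these genes 13 of 61 were lower (21.3%, beside 15.4% of all bodies) and 3 higher, which turned to 6 lower and 11 higher after scaling. In shGFP 68.9% of their bodies were covered, beside 32.0% of all bodies. Cytosolic ribosomal protein genes, which are short and transcribed at a high level in growing cells, held 0 bp in shGFP and 264 bp in shSuz12 over 75 bodies, and 636 olfactory and vomeronasal receptor genes held 3198 and 718 bp.

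**Figure D4:**
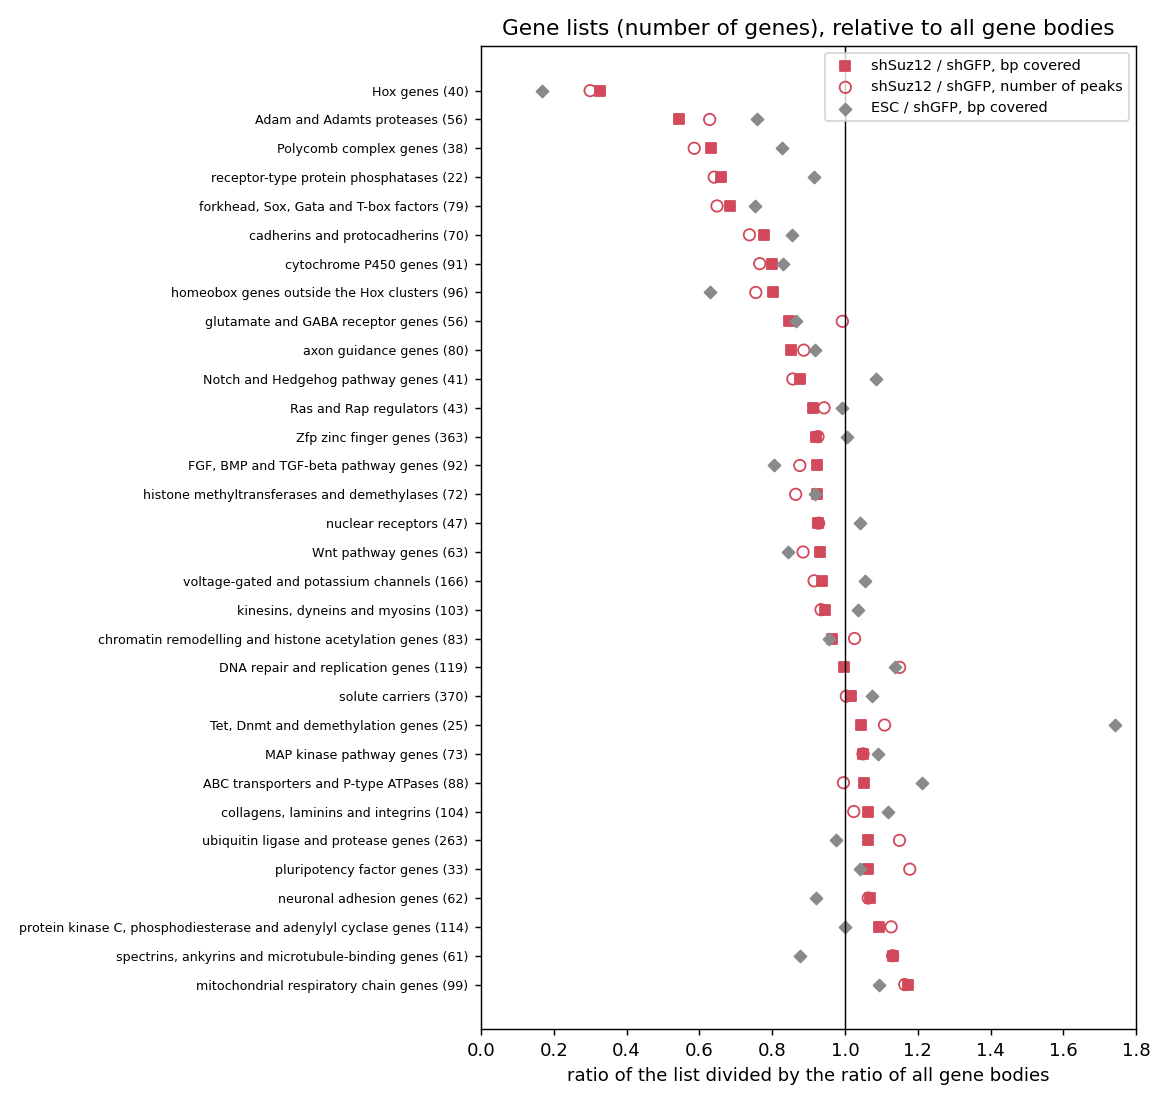
Ratio of each gene list divided by the ratio of all gene bodies (x axis, linear), for the lists reported here with at least 10 shGFP peaks; squares give bp of shSuz12 over shGFP, open circles numbers of peaks, and diamonds bp of ESC over shGFP, which share the shGFP library. Hox genes lie farthest left on all 3 measures, and squares and circles stay close to each other in most lists.

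What the bodies with lower and higher ratios had in common was looked for in sequence. In 4 equal groups of genes by CpG per kb of body, the ratio of bp was 0.994, 0.770, 0.605 and 0.497 from the fewest to the most CpG. The ratio of ESC to shGFP, neither with the Suz12 hairpin, was 0.541, 1.15, 1.53 and 1.68. Both ratios thus differed by CpG group but in opposite directions, falling with CpG for shSuz12 and rising for ESC. They share the shGFP library, and the cause was not tested. The ratio of peak numbers of shSuz12 to shGFP, which does not use their width, was 1.84, 1.44, 1.09 and 0.906 in the same order. In the poorest group, peaks numbered 272 in shGFP and 500 in shSuz12, and in the richest 7108 and 6439. The median body of the Hox list held 26.9 CpG per kb, that of the homeobox list 19.8 and that of all genes 10.7.

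The same order appeared by the coverage of the body in ESC. Among 13436 genes bare in ESC, midpoints numbered 1319 in shGFP and 2219 in shSuz12, a ratio of 1.68, and the ratio of bp was 0.885. Among 2927 genes with over 20% covered in ESC, midpoints numbered 6337 and 5758, a ratio of 0.909, and the ratio of bp was 0.497. Genes in classes between these had bp ratios of 0.701, 0.635, 0.585 and 0.572. Overlapping genes are counted in each class they belong to, and CpG and ESC coverage go together, with a median of 8.74 CpG per kb in the bare class and 17.3 in the most covered. By length, bodies under 5 kb had a ratio of 0.431 and those of 200 kb or more 0.619.

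**Figure D5:**
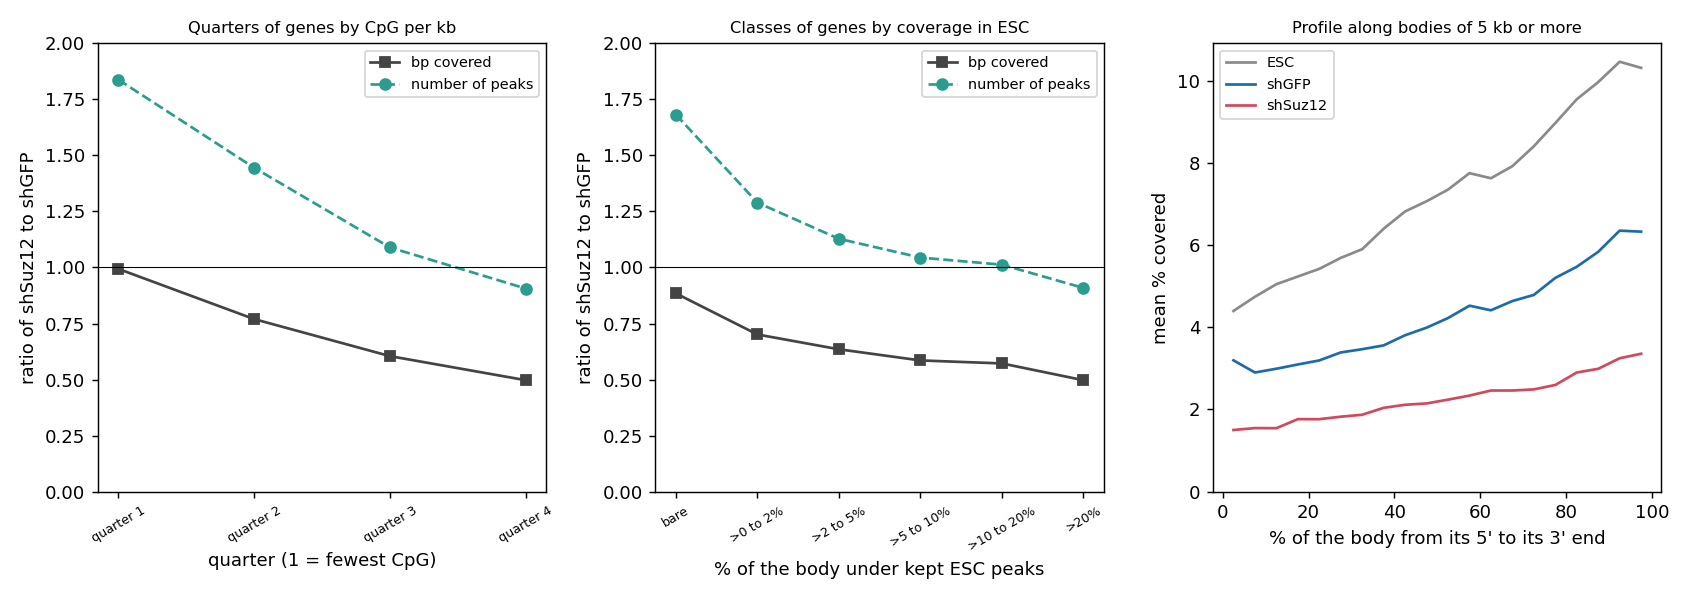
Left and middle, ratio of shSuz12 to shGFP in bp covered (squares) and number of peaks (circles) for 4 gene groups by CpG per kb and for classes by the share of the body covered in ESC; right, mean percentage covered along 15803 bodies of at least 5 kb from 5′ to 3′. Peak ratios cross 1 between the poor and the rich classes, and coverage rises towards the 3′ end in all 3 libraries.

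Along the body, mean coverage was 3.05% over the 10% at the 5′ end and 6.34% over the 10% at the 3′ end in shGFP, and 1.52% and 3.30% in shSuz12. The rise was 2.08-fold and 2.17-fold, and 2.27-fold in ESC, so the shape along the gene was close in all 3 libraries. Exons took 23.7% of the covered body bp in shGFP and 22.7% in shSuz12.

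The number of kept peaks was set equal by the rule, so their places are compared here. Of the covered gene-body bp, 5.98 Mb were shared, 26.4% of those in shGFP and 46.0% of those in shSuz12. Between shGFP and ESC 15.6 Mb were shared, 68.8% of shGFP and 44.5% of ESC, and 58.6% of the shSuz12 bp were also covered in ESC. The 2 shares of shGFP cannot be compared directly, because shSuz12 covered 0.574 times the gene-body bp of shGFP and ESC 1.55 times. With shSuz12, no more than that 0.574 of the shGFP bp could be shared. As a part of the other library the overlap was 46.0% of shSuz12 and 44.5% of ESC. These shares have unlike limits too, since shGFP covered more bp than shSuz12 but fewer than ESC, so not all ESC bp could be shared. By peaks, 67.6% of those of shGFP in gene bodies met a kept ESC peak, and kept ESC peaks were the widest. Of the 14201 shGFP peaks in gene bodies, 41.2% met a kept shSuz12 peak, 43.5% met only weaker shSuz12 peaks and 15.3% met none in the full list. Of the 15089 shSuz12 peaks, 42.3% met a kept shGFP peak, 37.7% only shGFP peaks outside the kept set, and 3020 peaks met none.

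Peaks found in both libraries and peaks of 1 library were not of the same kind. The shSuz12 peaks that met a kept shGFP peak had a median of 24.9 CpG per kb, and 31.4% of them (30.3 to 32.6) had their midpoint in an exon. Those that met no shGFP peak had 17.4 CpG per kb, and 15.1% (13.9 to 16.5) had their midpoint in an exon. Their median width was 602.5 bp against 954 bp, and 64.8% of them met a peak of the full ESC list, against 99.4% of those shared with shGFP. For shGFP the contrast had the same direction and was smaller, with 22.9 and 19.4 CpG per kb and with 31.0% and 22.5% of midpoints in exons. The intervals are exact binomial ones at 95% and cover counting error only.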

How the data were processed

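Mouse GLIB-Seq peak lists were used. Reads had been mapped by the authors to mm9 with Bowtie, and peaks called with MACS library by library. The submitters' processing notes name Bowtie 0.12.7, CASAVA 1.8 and MACS 1.4.1. Peak scores are used as deposited, which is the authors' MACS value, taken as 10 times the negative log10 of the p-value, and serve only to rank peaks. No read counts are given, so depth is unknown, and the lists do not share 1 lowest score. A fixed number of peaks per library, 23500, was therefore kept, with ties taken by chromosome and position, which leaves differences in peak width in the bp.

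From these lists, bp covered per gene body were computed with Python 3.11.15, numpy 2.4.6, scipy 1.17.1 and pysam 0.24.0 on NCBIM37 and GENCODE M1 (36 gene lists by symbol, 136 symbols with more than 1 gene). Mitochondrial peaks were left out, 3 in shGFP, 3 in shSuz12 and 1 in ESC. Genes named are the 15 largest differences in bp in each direction, the 10 after scaling, the 5 in percent of bodies of at least 5000 bp, up to 4 per list, and PRC2 and other genes of the study. A gene lying mostly within a higher-ranked one was joined to it. The comparison, genes and lists were chosen with earlier results of these data known. Interval operations and calls were tested on simulated data. Some genes and 1 gene list that the rule names are not reported here. With 1 library a condition no p-value was computed.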

Additional observations from a re-analysis of the deposited data

How the results depend on the processing

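The gene-body ratio of 0.574 stayed below 1 with all peaks (0.712), the top 10000 (0.547) and a common score of at least 80 (0.266), and with whole spans, without every TSS, without models over 2 Mb and without chromosome 8. It was 1.001 when both sets covered equal bp, 1.06 by midpoints and 1.06 with every peak set to 800 bp. These settings make the covered bp equal or leave out the width of equal numbers of peaks. Values near 1 were thus largely set in advance and are no turn of direction. The share of shGFP bp also covered in shSuz12 (26.4%) was 36.9%, 23.7%, 17.8% and 32.3% with all peaks, the top 10000, the common score and equal bp, and 24.5% without chromosome 8. Lower and higher genes (3147 and 708) numbered 7325 and 98 with the common score, 1431 and 1547 at equal bp, 1067 and 1257 by midpoints, 1974 and 2069 after scaling, 1845 and 213 with at least 2000 bp, and 1039 and 1213 with 800-bp peaks. Of the 3147 lower genes, 1148 were lower with all peaks and 1023 by midpoints, and of the 708 higher genes 61 and 494. Among named genes past 2-fold, the part of bp in shSuz12, of both libraries, fell under 50% with all peaks in Ext1 (44.7%), Igf1r (47.4%), Pcnt (49.6%), Fndc3b (49.99%), Erich1 (47.01%), Pkp4 (44.4%) and RP23-191I16.2 (46.5%). With the common score it did so in Ext1 (43.6%), Igf1r (31.9%), Fndc3b (31.5%), Nudcd3 (38.1%), Atrnl1 (31.2%), Erich1 (38.6%), Rph3al (44.6%), Pkp4 (19.3%), Adprh (45.3%) and RP23-191I16.2 (39.4%). It passed 50% in Cit at equal bp (56.8%) and in Gigyf1 by midpoints (66.7%) and with 800-bp peaks (70.5%). Named genes under 2-fold turned as well, 5 with all peaks, 6 with the common score, 6 at equal bp, 10 by midpoints, 10 with 800-bp peaks, 11 after scaling and 5 with the top 10000. They include Abr (30.5%), Mcph1 (32.0%) and Pdia5 (46.3%) with the common score, Fgfr2 (57.4%) at equal bp, Tiam1 (52.1%), 4933407C03Rik (54.9%) and Tet1 (66.7%) by midpoints, and Dnahc8 (52.2%) after scaling. The settings of 800-bp peaks, of models over 2 Mb and of chromosome 8 were chosen after seeing the data, and the cause of the other changes was not tested. No paired analysis was possible because shGFP and shSuz12 have 1 library each, and for the same reason no replicate could be left out. Without read counts, the depth behind a listed 0 is unknown.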

Other observations

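The lists not described above are given beside all bodies, which had a ratio of 0.574, with 15.4% of genes lower and 3.46% higher. In shGFP 32.0% of all bodies were covered, beside 50% of channel bodies and 45.8% of those of histone methyltransferases and demethylases. Voltage-gated and potassium channels had 326917 bp in shGFP and 175878 in shSuz12 (0.538), with 39 of 166 genes lower and 5 higher, but 20 and 18 after scaling, and the calcium channel subunit gene Cacna2d2 had 13385 bp in shGFP and 3916 in shSuz12. Glutamate and GABA receptor genes had a ratio of 0.485, and Grik3, a kainate receptor gene, 21135 and 6877 bp, while without it the ratio was 0.537. Ras and Rap regulators had 0.524, and 0.605 without Sipa1l3. Kinesins, dyneins and myosins had 0.543, and protein kinase C, phosphodiesterase and adenylyl cyclase genes 0.627.

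Among chromatin genes, histone methyltransferases and demethylases had a ratio of 0.530, with 20 of 72 lower and 2 higher, but 7 and 8 after scaling. Kdm6b, a demethylase of the mark that PRC2 places, had 6035 bp in shGFP, 660 in shSuz12 and 5973 in ESC, and Prdm16 had 27892, 11004 and 48399 bp. Remodelling and histone acetylation genes had 0.553, and Chd7, a helicase, had 15316 bp in shGFP, 2691 in shSuz12 and 15085 in ESC. ABC transporters and P-type ATPases had 0.604 and cytochrome P450 genes 0.459, the latter from 24834 and 11397 bp over 91 bodies. Replication-dependent histone genes had 1948 bp in shGFP, all in Hist1h2be, and 0 in the other libraries.

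Chromosome 8 held 15.7% of the covered gene-body bp in shGFP, 15.9% in shSuz12 and 16.8% in ESC, with Gm20388, Zfhx3, Zfp423, Nfix and Stox2 among its genes.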
